A study of Mus musculus with 8 samples.

Results

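The genes described here encode the enzymes that add methyl groups to DNA and histones and the enzymes that take them off, with subunits that the writing enzymes need. They were chosen by name: 43 gene symbols were looked up in the deposited expression table, and all 43 were among its 22075 genes. Of these, 31 are writers, their subunits or the partner Uhrf1, together called writers below, and 12 are erasers. A low-expression filter kept 39 for testing, 28 of the writers and 11 of the erasers. Tet1, Suv39h2, Setd1b and Carm1 were not tested because fewer than 2 libraries reached 1 FPKM (fragments per kilobase of gene at equal depth).

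RNA was sequenced from group 2 innate lymphoid cells (ILC2s), lymphocytes that lack antigen receptors and secrete type 2 cytokines. They were purified from lungs of C57BL/6 mice exposed briefly to the protease papain, and were then grown for about 5 days in IL-2 at 10 ng/ml. WT cells carried floxed Stat3 without Cre, and STAT3-KO cells carried floxed Stat3 with Vav-iCre, a recombinase expressed in blood cells. Both genotypes were studied as controls or after 2 more days with IL-33 at 10 ng/ml, which gives WT control, STAT3-KO control, WT IL-33 and STAT3-KO IL-33, with 2 libraries each. Every group therefore carried the floxed allele, had met papain in the lung and had grown in IL-2. Loss of STAT3 and presence of the Cre cannot be told apart. IL-33 and any difference in culture time or medium cannot be told apart, because the labels do not give the controls' medium during the last 2 days. Nor do they say whether the libraries of a group came from separate mice or cultures, so the p values measure only the spread between libraries, which may be technical.

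DNMT1 copies methylation onto the new DNA strand at replication, guided there by UHRF1, whereas DNMT3A and DNMT3B methylate unmodified DNA and the TET enzymes oxidise methylcytosine on the way to its removal. Histone methyltransferases act on set residues: PRC2 on H3K27 and the EHMT and SETDB enzymes on H3K9 in silent chromatin, the KMT2 and SETD1 enzymes on H3K4 at enhancers and promoters, and SETD2 and the NSD enzymes on H3K36. Most KDM enzymes remove these marks in an iron-dependent reaction, and the methyltransferases use S-adenosylmethionine as the methyl donor. Uhrf1, Eed and Suz12 are counted among the writers below but are not themselves methyltransferases.

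The libraries held 15841698 to 19904254 reads, computed from the steps between low values. A gene with 1 kb of exons and 3 reads would then read 0.151 to 0.189 FPKM, a limit from counting error only. Stat3 itself measured 41.7 to 55.3 FPKM in the 4 WT libraries and 8.03 to 16 in the 4 STAT3-KO libraries, which did not overlap. Mitochondrially encoded genes took 3.33% and 2.31% of the summed FPKM in the WT IL-33 libraries and 5.55% to 7.13% in the other 6. The 11 ILC2 markers, Gata3, Il1rl1 and Il5 among them, summed to 2559 to 2733 FPKM in WT control, 2632 to 2673 in STAT3-KO control, 8404 to 9201 in WT IL-33 and 2598 to 2807 in STAT3-KO IL-33. Of the 11, 3 rose and 8 fell with IL-33 in STAT3-KO cells, against 3 and 4 in WT cells. Over all tested genes 20.4% rose and 30.6% fell in STAT3-KO cells, and 14.5% and 21.6% in WT cells. In WT cells Il5, Il13 and Il2ra rose while Gata3, Icos, Il7r and Rora fell, so the sum does not speak for each marker. With IL-33, 9 were lower in STAT3-KO than WT cells, Gata3, Thy1 and Ptprc among them (16.4% of all tested genes). Thy1 was also called lower in STAT3-KO control than in WT control. The difference between the genotypes' responses was negative and called for 9 (8.43% of all tested genes). Of markers of other cells, T cell genes (8 of 9 in the table) summed to at most 10.0 FPKM and macrophage genes (4 of 6) to at most 6.78. The macrophage sum was 0.312 to 1.21 FPKM in WT control and 5.87 to 6.78 in WT IL-33. In STAT3-KO cells it was 0.595 to 2.66 in control and 3.23 to 6.74 with IL-33. Cd68, the 1 macrophage gene tested, rose with IL-33 in WT cells and was not called in the other comparisons. Epithelial and stromal genes (5 of 7) summed to 21.2 to 31.1. B cell genes (2 of 5) ran from 3.26 to 4.13 FPKM in STAT3-KO control to 19.6 to 21.9 in STAT3-KO IL-33, nearly all from Cd79b. Mast cell and basophil genes (3 of 6, without Fcer1a, Tpsb2 and Ms4a2) summed to 299 to 326 in WT control, 111 to 140 in STAT3-KO control, 127 to 155 in WT IL-33 and 7.49 to 8.68 in STAT3-KO IL-33. Of the 2 tested, Mcpt8 rose and Cpa3 fell with IL-33 in WT cells, so that sum does not speak for both. Cpa3 was also called lower in STAT3-KO control than in WT control. The part of these markers and of the mitochondrial share in the results below was not tested.

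Differences are given as differences of log2(FPKM + 1) ± SE from limma, and "rose", "fell" or "called" means an adjusted p under 0.05 (Benjamini-Hochberg over 11877 genes). Because 1 is added to each value, such a difference understates the change of a low gene. In bulk RNA, fewer cells of a kind and less RNA per cell cannot be told apart. With IL-33 in WT cells, 3 of 28 tested writers rose and 11 fell, and 0 of 11 erasers rose and 5 fell. Over all tested genes 14.5% rose, 21.6% fell and 36.1% did either, beside 19 of 39 members. In STAT3-KO cells 2 writers rose and 14 fell, and 0 erasers rose and 8 fell, where 20.4% of all tested genes rose and 30.6% fell, together 51.0% beside 24 of 39 members. Counted without a test, all IL-33 libraries lay above all controls for 7 members in WT (28.1% of all tested genes) and below them for 24 (42.3%), and in STAT3-KO cells for 4 (30.7%) and 30 (46.3%). The median difference of the 39 members was -0.47 in WT and -0.59 in STAT3-KO cells, beside -0.14 and -0.18 for all tested genes. When libraries were rescaled so that typical genes matched (median of ratios), the medians of all genes moved to -0.00 and -0.01. With that rescaling 8 writers and 4 erasers fell in WT cells, and 11 writers and 5 erasers fell in STAT3-KO cells. Shares of all tested genes after rescaling were not at hand, and the shares above belong to the fit without it.

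**Figure D1:**
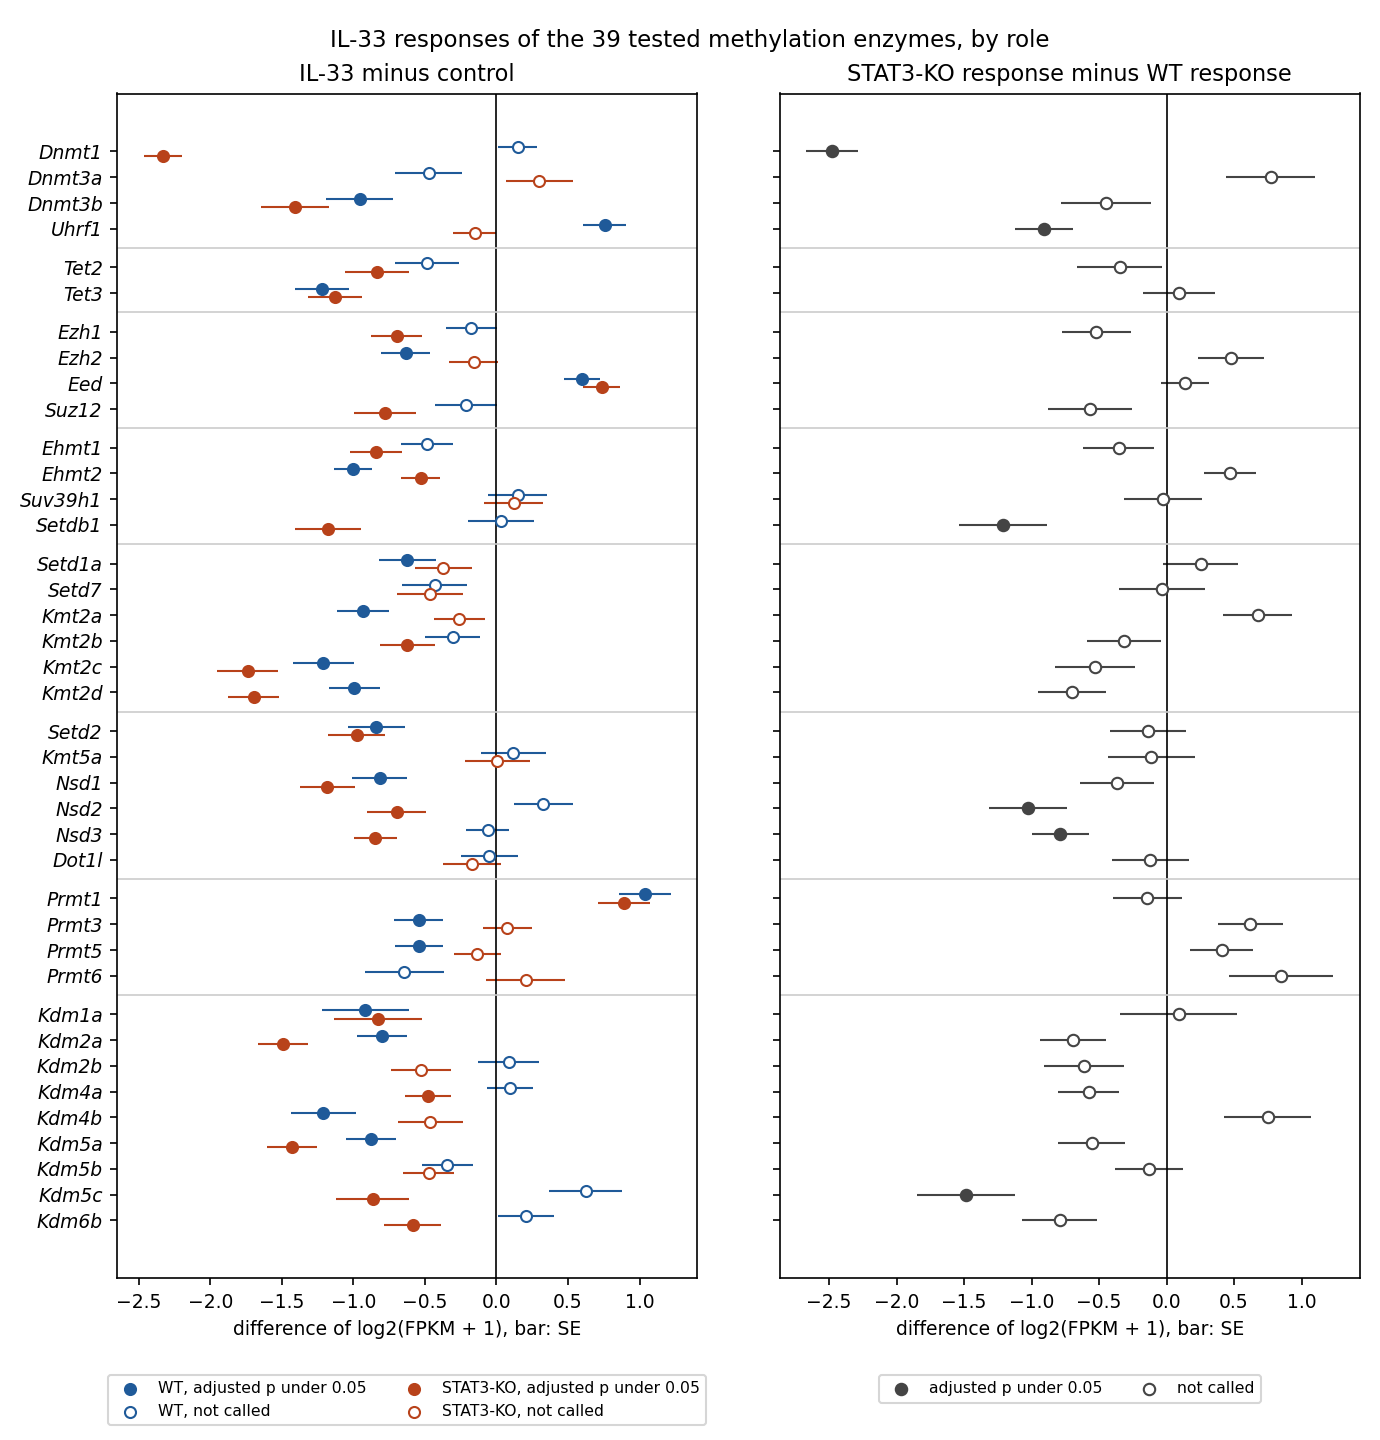
Differences of log2(FPKM + 1) for the 39 tested members, in blocks by role from DNA methylation writers at the top to histone demethylases at the bottom. The left panel shows IL-33 minus control in WT (blue) and STAT3-KO (red) cells, and the right panel the STAT3-KO response minus the WT response, with bars of 1 SE and filled points for adjusted p under 0.05. Most points lie left of 0, Prmt1 and Eed lie right of it in both genotypes, and Dnmt1 is farthest left in the right panel at -2.48.

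Members called lower in both genotypes numbered 10, the writers Dnmt3b, Ehmt2, Setd2, Kmt2c, Kmt2d and Nsd1 and the erasers Tet3, Kdm1a, Kdm2a and Kdm5a. Eed and Prmt1 were called higher in both. A further 12 were called lower in STAT3-KO alone and 6 in WT alone, but a call in 1 genotype does not show that the genotypes differ. Shares of all tested genes called in both genotypes, or in 1 alone, were not at hand. Whether these counts stand out is therefore not known. The difference between the IL-33 responses was itself tested, as the STAT3-KO response minus the WT response. It was called for 6 members, all with a negative difference: Dnmt1, Uhrf1, Setdb1, Nsd2, Nsd3 and the eraser Kdm5c. That is 5 of 28 writers and 1 of 11 erasers, where 8.43% of all tested genes had a called negative difference and 6.72% a called positive one, together 15.1%, near the members' share. Each result was refitted under 15 alternatives (14 for the difference between responses), namely 2 other pseudocounts, no filter, rescaling, a replicate block, only the 2 groups compared, removal of a trend with gene length, and each of the 8 libraries left out. Of the 6, Dnmt1 was called under all 14 and each of the others lost the call in at least 1. An adjusted p given below as "up to" a value is the highest over all alternatives of that result.

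Dnmt1, the maintenance methyltransferase (GRCm38 chromosome 9, 20907209 to 20959888), measured 22.6 and 27.8 FPKM in WT control and 28 and 27.5 in STAT3-KO control. With IL-33 it measured 27.8 and 28.1 FPKM in WT cells and 4.53 and 4.90 in STAT3-KO cells. The STAT3-KO IL-33 libraries thus lay far below the other 6, which overlapped. With IL-33 Dnmt1 fell by 5.88-fold of the mean FPKM in STAT3-KO cells, a difference of -2.33 ± 0.13 (adjusted p = 5.83e-06). In WT cells the difference was 0.15 ± 0.13 (adjusted p = 0.414). Between genotypes it was 0.14 ± 0.13 in control (adjusted p = 0.855) and -2.34 ± 0.13 with IL-33 (adjusted p = 1.89e-05). The responses differed by -2.48 ± 0.19 (adjusted p = 0.00032), and over the 14 alternatives this ranged from -2.69 to -2.26, with adjusted p between 0.00023 and 0.00699. By p value Dnmt1 ranked 26 of the 11877 genes in that test. Among the 39 tested members its level per length ranked 1 in WT control, 2 in STAT3-KO control, 4 in WT IL-33 and 15 in STAT3-KO IL-33. Its values rest on 545 to 4076 reads per library.

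Uhrf1, which binds hemimethylated DNA and recruits DNMT1 (chromosome 17, 56303321 to 56323486), measured 18.0 and 18.6 FPKM in WT control and 14.5 and 13.6 in STAT3-KO control. With IL-33 it measured 29.2 and 34.0 in WT cells and 11 and 14.2 in STAT3-KO cells. WT IL-33 was above all other groups, and the STAT3-KO groups overlapped each other. It rose with IL-33 in WT cells by 0.76 ± 0.15 (adjusted p = 0.00566), while the STAT3-KO difference was -0.15 ± 0.15 (adjusted p = 0.42). With IL-33 it was lower in STAT3-KO than in WT cells by 2.50-fold of the mean, a difference of -1.26 ± 0.15 (adjusted p = 0.000549), called in all 15 alternatives. In control the genotypes differed by -0.35 ± 0.15 (adjusted p = 0.521). The responses differed by -0.91 ± 0.21 (adjusted p = 0.0251). Without the low-value filter, or without WT control replicate 1, STAT3-KO control replicate 1 or 2, WT IL-33 replicate 1 or 2, or STAT3-KO IL-33 replicate 1, that call was lost (-1.08 to -0.74 over the alternatives, adjusted p up to 0.0997). The rise in WT cells was lost without WT IL-33 replicate 2 (adjusted p = 0.0514).

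Promoter windows are shown for the members with the lowest p for the difference between responses, 1 per role, and for Uhrf1, added after its match was seen. RefSeq windows of GRCm38.p6, 300 bases around an annotated start, were at hand for 33 of the 43 members, and capitals mark a match to the E2F motif on either strand, spelled TTTCGCGC or TTTGGCGC.
Dnmt1, chr9:20952574-20952873, minus strand: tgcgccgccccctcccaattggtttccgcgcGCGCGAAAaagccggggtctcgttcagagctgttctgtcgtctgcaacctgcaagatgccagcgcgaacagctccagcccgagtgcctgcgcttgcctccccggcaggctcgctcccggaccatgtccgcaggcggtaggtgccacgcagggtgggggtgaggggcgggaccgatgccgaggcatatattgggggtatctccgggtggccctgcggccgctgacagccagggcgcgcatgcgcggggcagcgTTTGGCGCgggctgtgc
Uhrf1, chr17:56304063-56304362, plus strand: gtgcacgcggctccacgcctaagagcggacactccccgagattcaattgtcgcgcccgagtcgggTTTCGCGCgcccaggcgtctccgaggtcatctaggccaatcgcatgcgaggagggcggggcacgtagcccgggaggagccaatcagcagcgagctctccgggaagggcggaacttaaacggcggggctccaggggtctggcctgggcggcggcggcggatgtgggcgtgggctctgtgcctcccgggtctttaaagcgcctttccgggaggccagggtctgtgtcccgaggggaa
Setdb1, chr3:95357153-95357452, minus strand: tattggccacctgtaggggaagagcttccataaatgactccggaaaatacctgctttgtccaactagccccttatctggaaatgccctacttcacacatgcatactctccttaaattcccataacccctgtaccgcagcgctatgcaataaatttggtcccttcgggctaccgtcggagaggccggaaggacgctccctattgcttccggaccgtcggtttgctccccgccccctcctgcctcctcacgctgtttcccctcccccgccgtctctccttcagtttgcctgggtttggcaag
Kdm5c, chrX:152232977-152233276, plus strand: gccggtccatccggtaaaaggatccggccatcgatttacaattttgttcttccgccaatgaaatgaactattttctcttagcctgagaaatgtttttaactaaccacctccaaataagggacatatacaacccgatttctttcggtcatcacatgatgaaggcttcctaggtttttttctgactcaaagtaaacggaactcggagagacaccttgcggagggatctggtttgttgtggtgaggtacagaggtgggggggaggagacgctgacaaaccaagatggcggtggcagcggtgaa
The Dnmt1 window shown holds 2 matches, starting at bases 32 and 284, and the Uhrf1 window shown 1, at base 66. The Dnmt1 windows that start at 20952930 and 20959839 are not shown and hold no match to any motif searched. Nor does the Uhrf1 window that starts at 56303087, also not shown. The Setdb1 and Kdm5c windows hold no match to any motif searched. E2F matches occurred in 3 of the members' 45 windows, those of Dnmt1, Uhrf1 and Ezh2 (6.67%), and in 0.813% of all 32851 windows. The STAT motif TTCNNNGAA occurred in 2 member windows (4.44%, Kmt2d and Setd7) and in 8.3% of all windows. NF-kB matches occurred in 5 (11.1%, against 8.46%) and the E-box CACGTG in 5 (11.1%, against 7.15%). NF-kB and E2F motifs were searched by name as GGGRNNYYCC and TTTSGCGC. Dnmt1 and Uhrf1 have other annotated starts, which a value per gene cannot tell apart, and a match is a string of letters and not a bound site.

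Genes of DNA replication and mitosis also differed between the groups. The 20 on a list, Mcm2 and Mki67 among them, summed to 580 to 599 FPKM in WT control and 453 to 459 in STAT3-KO control. With IL-33 they summed to 796 to 804 in WT cells and 347 to 378 in STAT3-KO cells. With IL-33 in WT cells 8 of the 20 rose and 0 fell, where 14.5% of all tested genes rose and 21.6% fell. In STAT3-KO cells 3 rose (Aurka, Ccnb1 and Rrm2) and 7 fell, Mcm2 among them, near the 20.4% and 30.6% of all tested genes. Between the genotypes with IL-33, 17 of 20 were lower in STAT3-KO cells and 0 higher, against 16.4% and 16.3% of all tested genes. Mcm2, a subunit of the replicative helicase, fell in STAT3-KO cells by 1.42 ± 0.14 on the log2 scale (adjusted p = 0.000102). Their part in the Dnmt1 and Uhrf1 results was not tested.

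The de novo methyltransferases were expressed at lower levels per length. Dnmt3a measured 2.39 and 3.51 FPKM in WT control, 3.09 and 3.92 in STAT3-KO control, 1.92 and 1.72 in WT IL-33, and 5.45 and 3.72 in STAT3-KO IL-33. The IL-33 groups did not overlap, and it was higher in STAT3-KO than WT cells with IL-33, by 0.97 ± 0.23 (adjusted p = 0.0139). That call was lost without either WT IL-33 replicate or STAT3-KO IL-33 replicate 1 (0.74 to 1.27 over the alternatives, adjusted p up to 0.095). Its other differences were not called, at -0.47 ± 0.23 with IL-33 in WT (adjusted p = 0.144), 0.30 ± 0.23 in STAT3-KO (adjusted p = 0.312), 0.20 ± 0.23 between control genotypes (adjusted p = 0.89) and 0.77 ± 0.33 between responses (adjusted p = 0.147). With the length trend removed, the STAT3-KO rise and the difference between responses were called, with adjusted p of 0.0189 and 0.0457. Dnmt3b measured 2.59 and 2.58 FPKM in WT control and 2.55 and 3.61 in STAT3-KO control. It fell with IL-33 to 0.630 and 1.09 FPKM in WT cells (-0.96 ± 0.24, adjusted p = 0.0144) and to 0.709 and 0.364 in STAT3-KO cells (-1.41 ± 0.24, adjusted p = 0.00159). The groups with IL-33 lay below both control groups in each genotype. The WT fall was lost without WT control replicate 1 or WT IL-33 replicate 1 (adjusted p up to 0.0935).

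**Figure D2:**
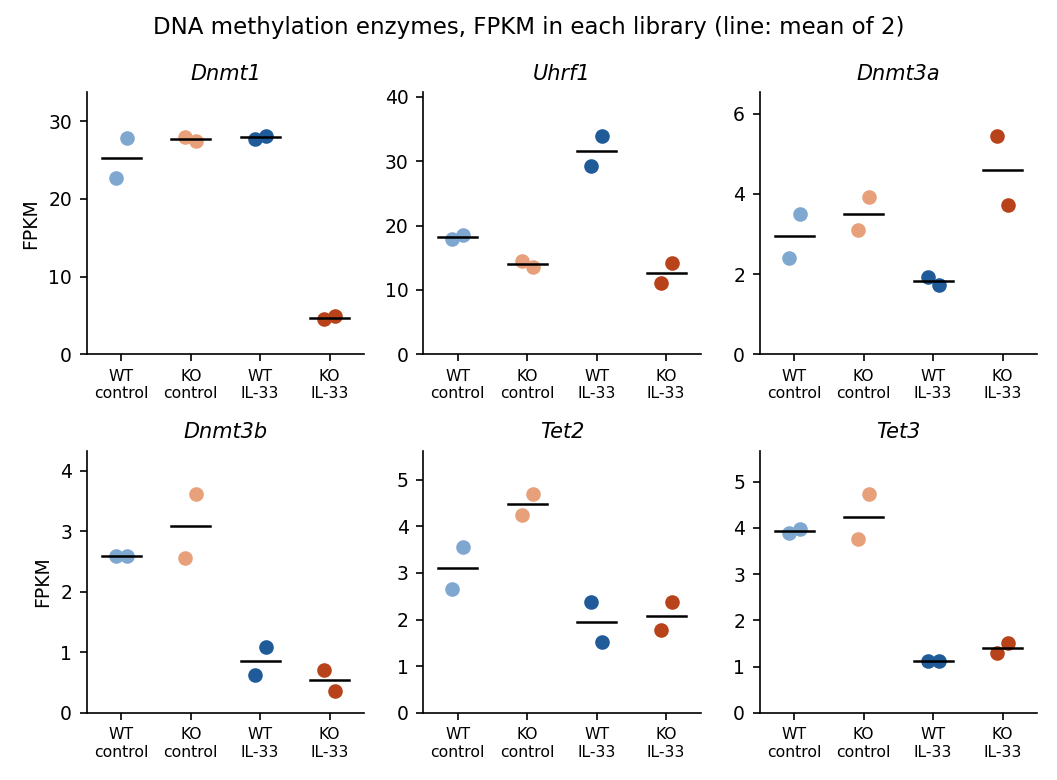
FPKM of 6 DNA methylation and demethylation genes in each of the 8 libraries (points, by group) with the mean of 2 libraries as a line, on linear axes that start at 0. Dnmt1 sits at 4.53 and 4.90 in STAT3-KO IL-33 and at 22.6 or above in the other 6 libraries, Uhrf1 is highest in WT IL-33, and Tet3 is low in both IL-33 groups.

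Among the 4 PRC2 members, Ezh1, Ezh2, Eed and Suz12, which methylate H3K27 together, Eed was the one that rose with IL-33, in both genotypes. Eed, the subunit that binds methylated H3K27 and activates the complex, measured 25.9 and 24.3 FPKM in WT control and 34.8 and 42.5 in WT IL-33 (0.60 ± 0.13, adjusted p = 0.00764). In STAT3-KO cells it went from 29.2 and 29.9 to 52.2 and 47.5 FPKM (0.73 ± 0.13, adjusted p = 0.00186). Neither genotype's groups overlapped, and the WT call was lost without WT IL-33 replicate 2 (adjusted p = 0.0544). Ezh2, a catalytic subunit tied to dividing cells, measured 4.29 and 3.91 FPKM in WT control, 3.86 and 3.70 in STAT3-KO control, 2.36 and 2.21 in WT IL-33, and 3.04 and 3.53 in STAT3-KO IL-33. It fell in WT cells (-0.63 ± 0.17, adjusted p = 0.0206), but that call was lost without WT control replicate 1 or either WT IL-33 library, and in a fit of the WT groups alone (adjusted p up to 0.093). Ezh2 differed by -0.16 ± 0.17 with IL-33 in STAT3-KO cells (adjusted p = 0.463), by -0.09 ± 0.17 between control genotypes (adjusted p = 0.942), by 0.38 ± 0.17 between genotypes with IL-33 (adjusted p = 0.124, and 0.0355 with the length trend removed) and by 0.48 ± 0.24 between responses (adjusted p = 0.214). Ezh1, the other catalytic subunit, was 4.15 to 9.85 times as abundant per length as Ezh2 in every library. In STAT3-KO cells Ezh1 fell from 26.2 and 21.9 to 12.6 and 16.4 FPKM (-0.70 ± 0.18, adjusted p = 0.0123), and Suz12, a core subunit, from 9.62 and 11.2 to 4.27 and 7.32 (-0.78 ± 0.22, adjusted p = 0.0174). Both calls were lost without STAT3-KO IL-33 replicate 1, that of Ezh1 also without STAT3-KO control replicate 1, and that of Suz12 without STAT3-KO control replicate 2, after rescaling and in the 2-group fit (adjusted p up to 0.0822 and 0.101). In WT cells Ezh1 differed by -0.18 and Suz12 by -0.21, neither called.

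The H3K9 methyltransferases split in their responses. Ehmt2 (G9a) measured 17.8 and 18.7 FPKM in WT control, 15.4 and 16.6 in STAT3-KO control, 8.20 and 9.03 in WT IL-33, and 10.0 and 11.5 in STAT3-KO IL-33. Its IL-33 libraries were all below its control libraries, and it fell by 1.00 ± 0.14 on the log2 scale in WT (adjusted p = 0.000868) and by 0.53 ± 0.14 in STAT3-KO cells (adjusted p = 0.0117). The latter call was lost after rescaling and without STAT3-KO control replicate 2 or STAT3-KO IL-33 replicate 1 (-0.62 to -0.33 over the alternatives, adjusted p up to 0.0785). Ehmt2 differed between control genotypes by -0.18 ± 0.14 (adjusted p = 0.787) and between genotypes with IL-33 by 0.29 ± 0.14 (adjusted p = 0.138, and 0.0447 with the length trend removed), and between responses by 0.47 ± 0.19 (adjusted p = 0.131). Its partner Ehmt1 (GLP) fell in STAT3-KO cells from 9.16 and 7.71 to 3.56 and 5.04 FPKM (-0.84 ± 0.18, adjusted p = 0.00574). In WT cells Ehmt1 went from 7.58 and 8.30 to 5.24 and 5.51 FPKM (-0.49 ± 0.18, adjusted p = 0.0697). Its responses differed by -0.36 ± 0.26 (adjusted p = 0.387). Suv39h1, a methyltransferase of heterochromatin, stayed between 1.32 and 1.98 FPKM in all libraries and was called in no comparison.

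Setdb1, which methylates H3K9 at endogenous retroviruses, behaved otherwise. It measured 6.03 and 10.8 FPKM in WT control, 9.38 and 9.58 in STAT3-KO control, 8.41 and 8.26 in WT IL-33, and 3.56 and 3.70 in STAT3-KO IL-33. Only the STAT3-KO IL-33 libraries stood apart, below the other 6. With IL-33 Setdb1 fell in STAT3-KO cells by 1.18 ± 0.23 on the log2 scale (adjusted p = 0.00338), whereas WT cells differed by 0.03 ± 0.23 (adjusted p = 0.926). The genotypes differed with IL-33 by -1.01 ± 0.23 (adjusted p = 0.0112) and in their responses by -1.21 ± 0.33 (adjusted p = 0.0408). Setdb1's fall within STAT3-KO cells was called in all 15 alternatives. The difference between genotypes was lost without either WT IL-33 replicate or STAT3-KO IL-33 replicate 1 (adjusted p up to 0.0701). The difference between responses was lost without the filter, with the length trend removed, and without any 1 library except WT control replicate 2 (-1.59 to -0.83, adjusted p up to 0.125).

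Of the 6 tested H3K4 methyltransferases, 4 fell with IL-33 in WT cells and 3 in STAT3-KO cells, and 0 rose in either, where 21.6% and 30.6% of all tested genes fell. Kmt2c, which marks enhancers, measured 4.15 and 2.91 FPKM in WT control and 0.857 and 1.03 in WT IL-33 (-1.21 ± 0.21, adjusted p = 0.00302). In STAT3-KO cells it went from 4.37 and 4.99 to 0.614 and 0.785 FPKM (-1.74 ± 0.21, adjusted p = 0.000287), a 6.69-fold fall of the mean. Its close relative Kmt2d fell from 4.58 and 5.23 to 1.76 and 2.18 FPKM in WT cells (-0.99 ± 0.18, adjusted p = 0.0035) and from 5.69 and 5.81 to 1.09 and 1.08 in STAT3-KO cells (-1.69 ± 0.18, adjusted p = 0.000136). The IL-33 libraries of both genes lay below all control libraries, and all 4 of these calls held in every alternative. Kmt2d and Kmt2c responses differed between genotypes by -0.70 ± 0.25 (adjusted p = 0.0962) and -0.53 ± 0.30 (adjusted p = 0.257).

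Kmt2a (MLL), which acts at promoters of developmental genes, measured 4.94 and 5.58 FPKM in WT control, 6.27 and 7.47 in STAT3-KO control, 2.59 and 1.99 in WT IL-33, and 5.22 and 5.92 in STAT3-KO IL-33. Only WT IL-33 was low. It fell in WT cells (-0.93 ± 0.18, adjusted p = 0.00498) and was higher in STAT3-KO than WT cells with IL-33 (1.00 ± 0.18, adjusted p = 0.00384), a 2.43-fold difference of the means. Both held in all 15 alternatives. The STAT3-KO response was -0.26 ± 0.18 (adjusted p = 0.261), and the responses differed by 0.67 ± 0.26 (adjusted p = 0.111). Setd1a fell in WT cells from 1.89 and 1.86 to 1.01 and 0.732 FPKM (-0.62 ± 0.20, adjusted p = 0.0378). In STAT3-KO cells it went from 1.78 and 1.62 to 1.00 and 1.18 FPKM (-0.37 ± 0.20, adjusted p = 0.146). Its responses differed by 0.25 ± 0.28 (adjusted p = 0.578). Kmt2b fell in STAT3-KO cells from 1.37 and 1.42 to 0.492 and 0.622 (-0.62 ± 0.19, adjusted p = 0.0266). In WT cells it went from 1.34 and 1.35 to 0.916 and 0.871 FPKM (-0.31 ± 0.19, adjusted p = 0.245). Its responses differed by -0.32 ± 0.27 (adjusted p = 0.471). Each of these calls was lost in 10 and 5 alternatives in that order, for Setd1a without any 1 WT or STAT3-KO control or WT IL-33 library, and for Kmt2b without either STAT3-KO control library or STAT3-KO IL-33 replicate 1 (adjusted p up to 0.152 and 0.196). Setd7 was called in no comparison, at 0.455 to 2.06 FPKM. Setd1b, not tested, measured 0.887 and 0.909 FPKM in STAT3-KO control and 0.239 and 0.256 in STAT3-KO IL-33, which the fit without the filter called lower (-0.61, adjusted p = 0.0169).

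Of the 4 H3K36 methyltransferases, 2 fell in WT cells (Setd2 and Nsd1) and all 4 in STAT3-KO cells, where 21.6% and 30.6% of all tested genes fell. Setd2, which trimethylates H3K36 in transcribed genes, went from 3.06 and 3.59 to 1.51 and 1.31 FPKM in WT cells (-0.84 ± 0.20, adjusted p = 0.012) and from 3.52 and 4.36 to 1.30 and 1.72 in STAT3-KO cells (-0.98 ± 0.20, adjusted p = 0.00406). Nsd1 went from 4.97 and 6.43 to 2.81 and 2.76 FPKM in WT (-0.82 ± 0.19, adjusted p = 0.0119) and from 6.33 and 7.41 to 2.14 and 2.80 in STAT3-KO cells (-1.18 ± 0.19, adjusted p = 0.00135). All 4 pairs of groups were apart. The STAT3-KO falls of both held in every alternative, while both WT falls were lost without WT control replicate 2 or WT IL-33 replicate 2, and that of Nsd1 also without WT IL-33 replicate 1 (adjusted p up to 0.0705 and 0.0657).

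Nsd2 and Nsd3, relatives of Nsd1, were low in STAT3-KO IL-33 alone. Nsd2 measured 2.09 and 3.13 FPKM in WT control, 2.90 and 3.15 in STAT3-KO control, 3.55 and 3.41 in WT IL-33, and 1.34 and 1.63 in STAT3-KO IL-33. Nsd3 measured 8.86 and 8.29, 9.27 and 10.3, 8.44 and 7.91, and 4.65 and 5.36 FPKM in the same order. In STAT3-KO cells Nsd2 fell by 0.70 ± 0.20 (adjusted p = 0.0208) and Nsd3 by 0.85 ± 0.15 (adjusted p = 0.00202) on the log2 scale. In WT cells the differences were 0.33 ± 0.20 (adjusted p = 0.241) and -0.06 ± 0.15 (adjusted p = 0.774). The responses differed by -1.02 ± 0.29 for Nsd2 (adjusted p = 0.048) and by -0.79 ± 0.21 for Nsd3 (adjusted p = 0.0404). Those 2 calls were lost in 11 and 10 of the 14 alternatives, including the length trend, the replicate block and 7 of the 8 libraries left out, all but WT control replicate 2 for Nsd2 and STAT3-KO IL-33 replicate 2 for Nsd3 (adjusted p up to 0.138 and 0.218). With the length trend removed the STAT3-KO falls were also lost (adjusted p of 0.418 and 0.0765). That of Nsd2 was lost as well without either STAT3-KO control library or STAT3-KO IL-33 replicate 1. Between the genotypes with IL-33, Nsd2 differed by -0.85 ± 0.20 (adjusted p = 0.0138) and Nsd3 by -0.61 ± 0.15 (adjusted p = 0.0146), and both calls were lost without either WT IL-33 replicate or STAT3-KO IL-33 replicate 1, that of Nsd3 also in the 2-group fit and with the length trend removed (adjusted p up to 0.0755 and 0.113). Dot1l, which methylates H3K79 (1.22 to 2.60 FPKM), and Kmt5a, which methylates H4K20 (0.844 to 1.87 FPKM), were called in no comparison.

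**Figure D3:**
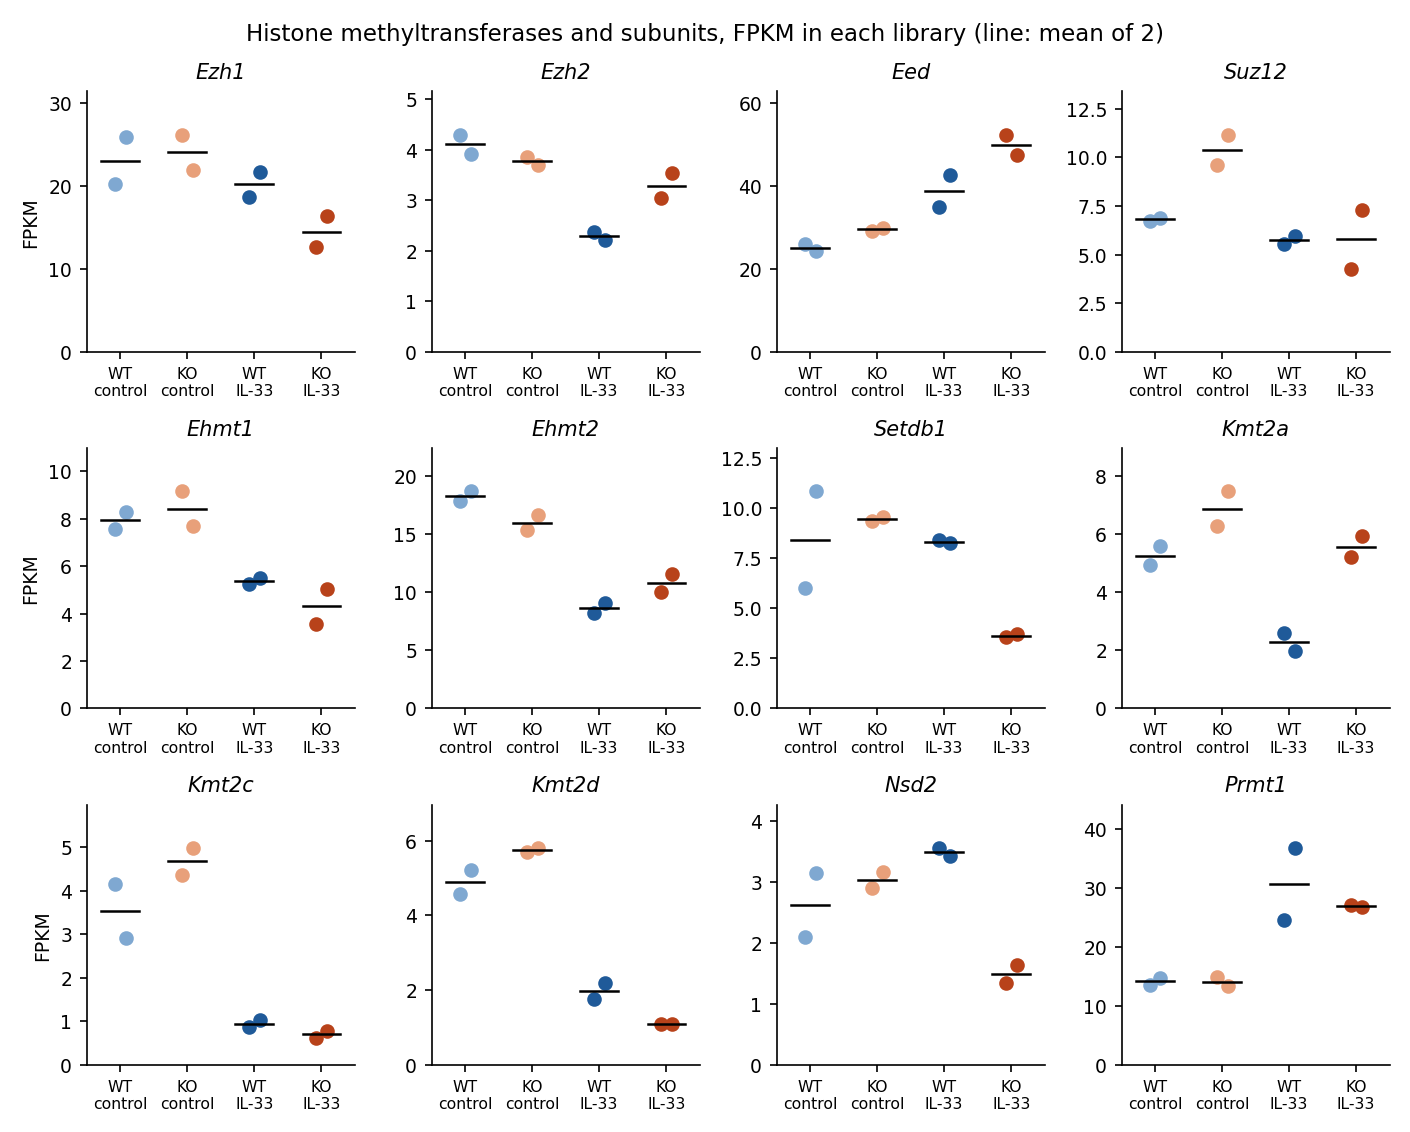
FPKM of 12 histone methyltransferases and subunits in each of the 8 libraries (points, by group), with the mean of 2 libraries as a line, on linear axes that start at 0. Kmt2c and Kmt2d are low in both IL-33 groups, Kmt2a and Ezh2 are lowest in WT IL-33, Setdb1 and Nsd2 are lowest in STAT3-KO IL-33, and Eed and Prmt1 are higher with IL-33 in both genotypes.

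Of the 4 tested arginine methyltransferases, Prmt1, which makes most asymmetric dimethylarginine, rose in both genotypes. It measured 13.6 and 14.7 FPKM in WT control and 24.6 and 36.8 in WT IL-33 (1.04 ± 0.18, adjusted p = 0.00311), and 14.8 and 13.4 in STAT3-KO control and 27.2 and 26.8 in STAT3-KO IL-33 (0.89 ± 0.18, adjusted p = 0.00404). Every IL-33 library was above every control library, and both calls held in all 15 alternatives. Prmt3, a cytosolic enzyme acting on a ribosomal protein, measured 5.57 and 6.52 FPKM in WT control, 4.35 and 3.34 in WT IL-33 and 6.58 and 6.57 in STAT3-KO IL-33. It fell in WT cells (-0.54 ± 0.17, adjusted p = 0.0372) and was higher in STAT3-KO than WT cells with IL-33 (0.65 ± 0.17, adjusted p = 0.02). Prmt5, which makes symmetric dimethylarginine, fell in WT cells from 14.8 and 15.6 to 10.4 and 9.83 FPKM (-0.54 ± 0.17, adjusted p = 0.034). The 2 WT falls were lost after rescaling, without the filter, and without either WT control library or WT IL-33 replicate 2 (adjusted p up to 0.189 and 0.145). That of Prmt3 was lost also without either library of STAT3-KO control or of STAT3-KO IL-33, and that of Prmt5 without WT IL-33 replicate 1. The Prmt3 genotype call was lost without WT IL-33 replicate 2 or either STAT3-KO IL-33 library (adjusted p up to 0.123). Prmt6 was called in no comparison, at 1.15 to 3.82 FPKM, and Carm1 measured at most 0.872.

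Among the erasers, the TET enzymes differed in level and response. Tet1 measured between 0 and 0.176 FPKM and was not tested. Tet3 measured 3.89 and 3.98 FPKM in WT control, 3.76 and 4.73 in STAT3-KO control, 1.13 and 1.12 in WT IL-33, and 1.29 and 1.5 in STAT3-KO IL-33. Its IL-33 libraries all lay below its control libraries, and it fell by 1.22 ± 0.19 in WT (adjusted p = 0.00165) and by 1.13 ± 0.19 in STAT3-KO cells (adjusted p = 0.00149) on the log2 scale. Both calls held in all 15 alternatives. Tet2 measured 2.66 and 3.55 FPKM in WT control, 4.25 and 4.69 in STAT3-KO control, 2.37 and 1.51 in WT IL-33, and 1.77 and 2.38 in STAT3-KO IL-33. It fell in STAT3-KO cells (-0.84 ± 0.22, adjusted p = 0.0145), a call lost with the length trend removed and without STAT3-KO control replicate 2 or STAT3-KO IL-33 replicate 1 (-1.08 to -0.33 over the alternatives, adjusted p up to 0.21). Other Tet2 differences were not called, at -0.49 ± 0.22 with IL-33 in WT (adjusted p = 0.123), 0.42 ± 0.22 between control genotypes (adjusted p = 0.649), 0.07 ± 0.22 between genotypes with IL-33 (adjusted p = 0.837) and -0.35 ± 0.32 between responses (adjusted p = 0.493).

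Of the 9 histone demethylases, 4 fell with IL-33 in WT cells and 6 in STAT3-KO cells, where 21.6% and 30.6% of all tested genes fell, and 0 rose in either. In WT cells 4 of the 9 had differences above 0, none of them called. The 2 most abundant per length in control cells were Kdm2a, which acts on H3K36, and Kdm5a, which acts on H3K4. Kdm2a measured 16.7 and 19.8 FPKM in WT control, 18.5 and 20.3 in STAT3-KO control, 10.0 and 10.0 in WT IL-33, and 5.24 and 7.40 in STAT3-KO IL-33. Kdm5a measured 15.6 and 18.4, 19.2 and 18.5, 9.74 and 7.89, and 5.48 and 7.38 FPKM in the same order. In both genes the IL-33 groups lay below the control groups, with STAT3-KO IL-33 lowest. Kdm2a fell by 0.80 ± 0.17 in WT (adjusted p = 0.00822) and by 1.49 ± 0.17 in STAT3-KO cells (adjusted p = 0.000232), and Kdm5a by 0.87 ± 0.18 (adjusted p = 0.00579) and by 1.43 ± 0.18 (adjusted p = 0.00031), all on the log2 scale. The STAT3-KO falls held in every alternative. The WT falls were lost without WT IL-33 replicate 2 and, for Kdm2a, library 1 (adjusted p up to 0.0518 and 0.0521). With IL-33 Kdm2a was lower in STAT3-KO than WT cells by -0.61 ± 0.17 (adjusted p = 0.0281), a call lost in 6 alternatives that included either WT IL-33 replicate or STAT3-KO IL-33 replicate 1 left out (adjusted p up to 0.134).

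Kdm5c, an X-linked H3K4 demethylase (chromosome X, 152233020 to 152274535), was the eraser whose responses differed. It measured 4.63 and 7.70 FPKM in WT control, 6.18 and 7.08 in STAT3-KO control, 8.25 and 11.5 in WT IL-33, and 2.67 and 3.76 in STAT3-KO IL-33. The IL-33 groups lay on opposite sides of the overlapping controls. Kdm5c fell in STAT3-KO cells (-0.87 ± 0.26, adjusted p = 0.0214), against 0.62 ± 0.26 in WT cells (adjusted p = 0.0889). The genotypes differed with IL-33 by -1.36 ± 0.26 (adjusted p = 0.00458), a 3.07-fold difference of the means, and the responses by -1.49 ± 0.36 (adjusted p = 0.0283). Without WT IL-33 replicate 2 the genotype call was lost (adjusted p = 0.0532). The fall in STAT3-KO cells was lost without the filter, either STAT3-KO control library or STAT3-KO IL-33 replicate 1 (adjusted p up to 0.13). The difference between responses was lost without the filter and without any 1 library except WT control replicate 2 and STAT3-KO IL-33 replicate 2 (-1.80 to -1.17, adjusted p up to 0.119).

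Kdm4b, an H3K9 demethylase, fell in WT cells from 7.24 and 4.72 to 1.99 and 1.95 FPKM (-1.21 ± 0.23, adjusted p = 0.00421), in all 15 alternatives. In STAT3-KO cells it measured 4.14 and 5.34 in control and 2.79 and 3.53 with IL-33 (-0.46 ± 0.23, adjusted p = 0.119). Kdm6b, which removes H3K27 methylation, measured 1.01 and 0.926 FPKM in WT control, 1.33 and 1.28 in STAT3-KO control, 1.19 and 1.35 in WT IL-33, and 0.459 and 0.615 in STAT3-KO IL-33, so that STAT3-KO IL-33 was lowest. It fell in STAT3-KO cells (-0.59 ± 0.20, adjusted p = 0.0359), a call lost in 7 alternatives, among them the removal of any 1 STAT3-KO library (adjusted p up to 0.122). Its other differences were 0.21 ± 0.20 with IL-33 in WT (adjusted p = 0.44), 0.23 ± 0.20 between control genotypes (adjusted p = 0.829), -0.56 ± 0.20 between genotypes with IL-33 (adjusted p = 0.0582) and -0.79 ± 0.28 between responses (adjusted p = 0.0913). Kdm5b, another H3K4 demethylase, measured 3.11 and 3.29 FPKM in WT control, 2.68 and 2.96 in STAT3-KO control, 2.17 and 2.45 in WT IL-33, and 1.77 and 1.72 in STAT3-KO IL-33. It was called in no comparison, at -0.34 ± 0.18 with IL-33 in WT (adjusted p = 0.161), -0.47 ± 0.18 in STAT3-KO (adjusted p = 0.052), -0.14 ± 0.18 between control genotypes (adjusted p = 0.903), -0.27 ± 0.18 between genotypes with IL-33 (adjusted p = 0.286) and -0.13 ± 0.25 between responses (adjusted p = 0.765). Kdm1a (LSD1), the flavin-dependent H3K4 demethylase, went from 4.10 and 2.74 to 1.5 and 1.14 FPKM in WT and from 2.61 and 5.73 to 1.71 and 1.85 in STAT3-KO cells. Its calls were near the threshold (adjusted p = 0.0452 and 0.0492) and were lost in 9 and 12 alternatives, among them the removal of any 1 IL-33 library. Kdm4a fell in STAT3-KO cells from 9.49 and 8.81 to 5.63 and 6.97 FPKM (-0.48 ± 0.16, adjusted p = 0.0346), lost in 6 alternatives, without either STAT3-KO control library or STAT3-KO IL-33 replicate 1 among them (adjusted p up to 0.163). Kdm2b was called in no comparison, at 5.11 to 9.08 FPKM.

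**Figure D4:**
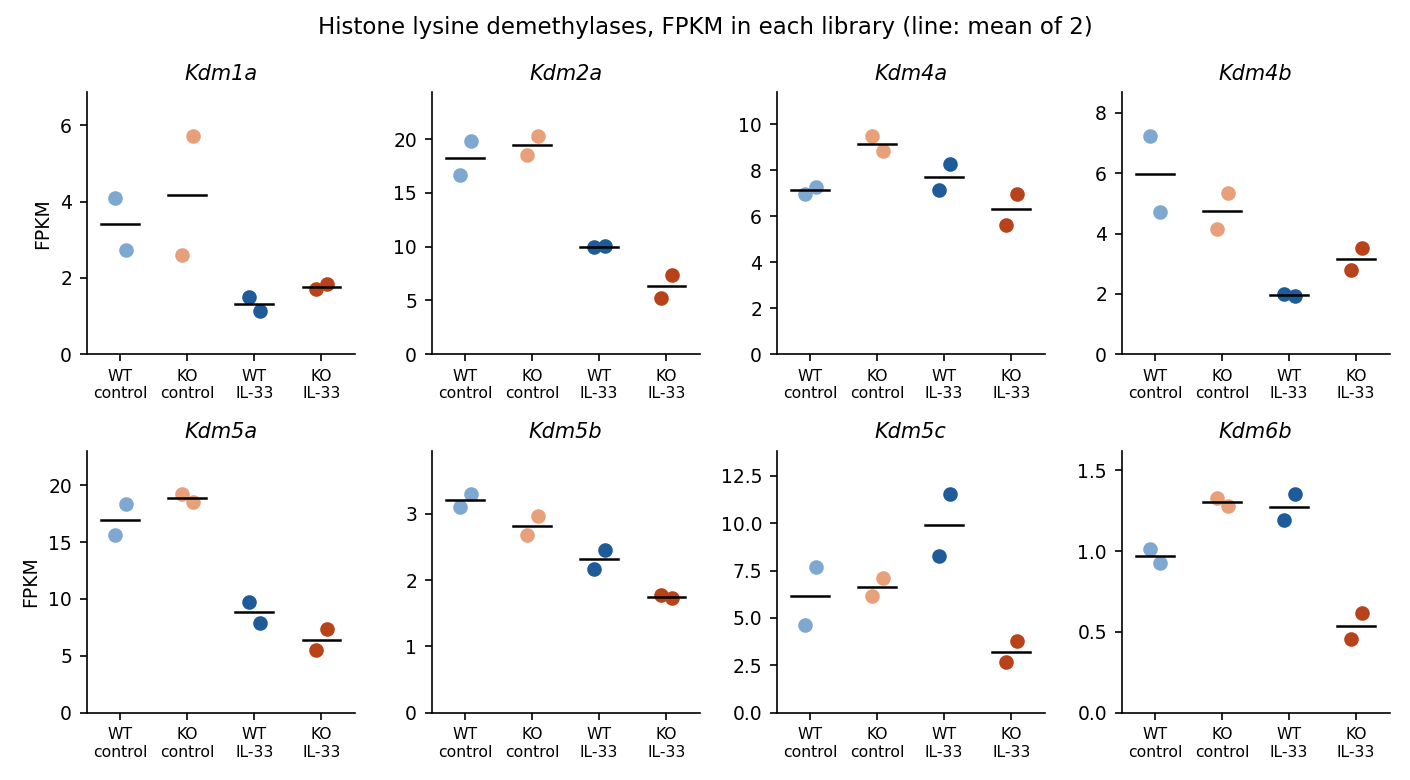
FPKM of 8 histone lysine demethylases in each of the 8 libraries (points, by group), with the mean of 2 libraries as a line, on linear axes that start at 0. Kdm2a and Kdm5a are lower with IL-33 in both genotypes, Kdm4b is lowest in WT IL-33, and Kdm5c and Kdm6b are lowest in STAT3-KO IL-33.

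The control genotypes were compared to see how the enzymes stood without IL-33. By limma, 0 of 39 members were called in either direction, where 0.253% of all tested genes were higher and 0.21% lower in STAT3-KO cells, together 0.463%. Without a test, both STAT3-KO control libraries lay above both WT ones for 13 members (21.1% of all tested genes) and below them for 7 (16.8%). At an unadjusted p under 0.05 there were 2 writers higher (Suz12 and Dot1l), 2 lower (Uhrf1 and Prmt5) and 0 erasers. At that unadjusted threshold 599 of all 11877 tested genes were higher and 507 lower. Suz12 had the largest positive difference among writers, at 0.54 ± 0.22 (6.74 and 6.91 FPKM in WT and 9.62 and 11.2 in STAT3-KO, which did not overlap), and Prmt5 the most negative, at -0.40 ± 0.17. With IL-33, 3 writers were higher in STAT3-KO cells (Dnmt3a, Kmt2a and Prmt3), 5 writers lower (Dnmt1, Uhrf1, Setdb1, Nsd2 and Nsd3) and 2 erasers lower (Kdm2a and Kdm5c), beside 16.3% of all tested genes higher and 16.4% lower, together 32.6%. The libraries with IL-33 lay wholly higher in STAT3-KO cells for 12 members (34.3% of all tested genes) and wholly lower for 19 (32.6%). Of these 10 calls, those of Dnmt1, Uhrf1 and Kmt2a held in every alternative.

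Many members are long genes. The median merged exon length was 7377 bases for the 39 tested members and 3768.5 for all tested genes with a length. Over those genes Spearman's rho between exon length and the IL-33 difference was -0.0436 in WT and -0.199 in STAT3-KO cells, a description across genes of the same libraries. Of the 15 tested members of at least 10 kb, 0 rose and 8 fell in WT cells, and 0 rose and 10 fell in STAT3-KO cells. Of the 24 shorter members, 3 rose and 8 fell in WT, and 2 rose and 12 fell in STAT3-KO cells. Over all tested genes 14.5% rose and 21.6% fell in WT cells, and 20.4% rose and 30.6% fell in STAT3-KO cells. Those shares cover genes of every length, and shares for genes of at least 10 kb alone were not at hand. With the trend of each library with exon length removed, 12 writers and 5 erasers fell in WT cells, and 11 writers and 4 erasers fell in STAT3-KO cells. With IL-33, 6 writers were then higher in STAT3-KO cells and 4 lower. The difference between responses was then called for 2 writers upward and 2 downward, where it had been 0 and 5. Shares of all tested genes called in that refit were not at hand. The part of length in each member's difference was not tested beyond that refit.

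**Figure D5:**
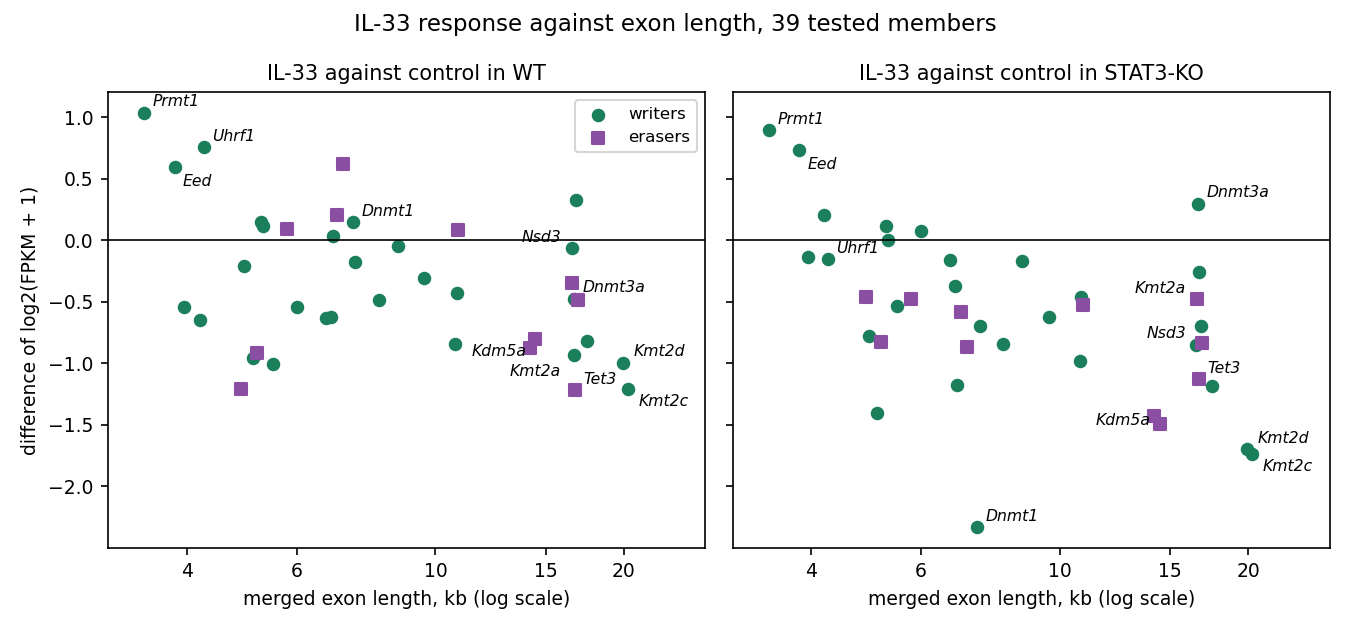
IL-33 minus control, as a difference of log2(FPKM + 1), against merged exon length in kb on a log axis for the 39 tested members, in WT (left) and STAT3-KO cells (right), with writers as circles and erasers as squares. Kmt2c and Kmt2d are the longest members and among the lowest points in both panels, whereas Dnmt1, at 7377 bases, is the lowest point for STAT3-KO cells.

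Other enzymes and partners came from lists of the same families, and their counts stand beside 14.5% of all tested genes that rose and 21.6% that fell in WT cells, and 20.4% and 30.6% in STAT3-KO cells. Of 18 tested further writers, 0 rose and 7 fell in WT cells, and 3 rose and 5 fell in STAT3-KO cells, the latter near the share over all genes. Kmt2e, a relative of the KMT2 enzymes, went from 31.5 and 29.1 to 10.5 and 9.80 FPKM in WT (-1.49 ± 0.13, adjusted p = 6.73e-05) and from 31.5 and 35.2 to 8.15 and 8.60 in STAT3-KO cells (-1.87 ± 0.13, adjusted p = 1.27e-05). Of 14 further erasers, 2 rose and 1 fell in WT cells, and 2 rose and 8 fell in STAT3-KO cells. Kdm3a, an H3K9 demethylase, measured 9.30 and 9.78 FPKM in WT control and 8.20 and 7.72 in WT IL-33 (-0.23 ± 0.15, adjusted p = 0.252). In STAT3-KO cells it fell from 7.31 and 7.75 to 2.20 and 2.53 FPKM (-1.34 ± 0.15, adjusted p = 0.000191). Of 31 partners and readers, 5 rose and 6 fell in WT cells, and 2 rose and 12 fell in STAT3-KO cells, with the WT counts near the share over all genes. Phf1, an accessory subunit of PRC2, went from 54.2 and 47.8 to 17.2 and 18.5 FPKM in WT (-1.46 ± 0.13, adjusted p = 7.42e-05) and from 54.0 and 62.4 to 17.1 and 18.4 in STAT3-KO cells (-1.65 ± 0.13, adjusted p = 2.48e-05). Rbbp7, a histone-binding subunit of PRC2 and other complexes, rose in both, from 281 and 274 to 413 and 417 FPKM in WT (0.58 ± 0.09, adjusted p = 0.00133) and from 258 and 278 to 571 and 614 in STAT3-KO cells (1.14 ± 0.09, adjusted p = 2.28e-05).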

How the data were processed

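RNA of 8 cultured ILC2 libraries in 4 groups, taken from the sample labels, was deposited as 1 FPKM value per gene and library. The authors made the FPKM values with Bowtie2 and RSEM on GRCm38, per the submitters' processing notes, and versions, annotation and strand setting are not given in the sources used here. Without a strand setting, overlapping and antisense genes cannot be told apart. FPKM times merged exon length (GENCODE M21, matched by Ensembl identifier for 22041 of 22075 genes) gave whole numbers, within 0.02, for 93.5% to 94.6% of values of up to 100 reads, and the step between them gave the depth. RSEM by itself estimates counts, so the counting is not fully described. No count test was run on FPKM.

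Genes with at least 1 FPKM in at least 2 libraries were tested on log2(FPKM + 1) with limma 3.58.1 in R 4.3.3, with 1 mean per group over all 8 libraries and eBayes with a trend. Tests were two-sided and adjusted over 11877 genes. Residual degrees of freedom were 4 and the median prior ones 4.459. The procedure was also run on simulated reads, with a fixed spread for all genes and changed genes in STAT3-KO IL-33 only. That run does not bear on the spread of these data or on shifts of many genes. Python 3.11.15, pandas 2.3.3, numpy 2.4.6 and matplotlib 3.10.9 made tables and figures.

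The members and lists were chosen with earlier results of these data known. Full statistics went to Dnmt1, Dnmt3a, Uhrf1, Tet2, Ezh2, Ehmt2, Kdm6b and Kdm5b in every comparison and to up to 4 called members of lowest p per role and comparison. From the other lists up to 3 called genes of lowest p were eligible. Promoter windows were set for up to 4 members of lowest p between responses, 1 per role, with Uhrf1 added later; Nsd3 qualified and had no window in the table used. The alternatives are given in the text and their effect in the closing section.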

Additional observations from a re-analysis of the deposited data

Results flagged for a closer look

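A test of how far the genotypes' responses to IL-33 differ (limma, Benjamini-Hochberg adjusted p under 0.05) called 6 of 39 members, 2 of 18 further writers, 3 of 14 further erasers and 5 of 31 partners and readers, of which the 3 of lowest p are given. Over all tested genes 15.1% were called, so the members' count is near that share. All values are differences of log2(FPKM + 1), STAT3-KO response minus WT response. Among writers they were -2.48 for Dnmt1, -0.908 for Uhrf1, -1.21 for Setdb1, -1.02 for Nsd2 and -0.786 for Nsd3, and for the eraser Kdm5c the value was -1.49. All 6 were negative, and all but Dnmt1 lost the call in at least 1 alternative.

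Of further writers, Smyd5 had 1.24 (adjusted p = 0.0076) and Smyd2 0.889 (adjusted p = 0.0461). Smyd5, a lysine methyltransferase of the SMYD family, measured 6.73 and 6.25 FPKM in WT control, 5.84 and 6.43 in STAT3-KO control, 5.44 and 4.81 in WT IL-33, and 12.6 and 12.9 in STAT3-KO IL-33, where it was highest. Of further erasers, Kdm3a had -1.11 (adjusted p = 0.0122), Kdm6a -2.3 (adjusted p = 0.0194) and Kdm4d -1.35 (adjusted p = 0.0489). Kdm6a, the X-linked H3K27 demethylase, measured 3.97 and 10.3 FPKM in WT control, 9.82 and 7.49 in STAT3-KO control, 8.02 and 10.1 in WT IL-33, and 1.26 and 1.97 in STAT3-KO IL-33. Only the last group stood apart. The Kdm6a call was lost without the filter, STAT3-KO control replicate 1, either WT IL-33 replicate or STAT3-KO IL-33 replicate 1 (adjusted p up to 0.0939), and that of Kdm3a without STAT3-KO control replicate 2 or WT IL-33 replicate 1 (adjusted p up to 0.0553). The calls of Smyd2 and Kdm4d were lost in 11 and 10 of the 14 alternatives, among them 7 of the 8 libraries left out, all but WT control replicate 2 for Smyd2 and STAT3-KO control replicate 2 for Kdm4d (adjusted p up to 0.143 and 0.145). Kdm4d was listed at 0 and 0.0441 FPKM in WT control and at 0.588 to 1.58 in the other 6 libraries.

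Among partners and readers, Mbd3, a subunit of the NuRD complex, had 1.67 (adjusted p = 0.00525), Rbbp4, a histone-binding subunit, -1.19 (adjusted p = 0.00664), and Cbx3, a reader of H3K9 methylation, -1.23 (adjusted p = 0.00982). Mbd3 measured 4.86 and 4 FPKM in WT control, 3.02 and 2.85 in STAT3-KO control, 1.95 and 2.32 in WT IL-33, and 5.74 and 6.74 in STAT3-KO IL-33. It was lowest in WT IL-33 and highest in STAT3-KO IL-33. Smyd5, Mbd3, Rbbp4 and Cbx3 were called in all 14 alternatives.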

How the results depend on the processing

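All 59 calls among members kept their direction in every alternative that gave a value. With pseudocounts of 0.1 and 0.5 the number still called was 57 and 59, without the filter 46, after rescaling 49, with the length trend removed 47, and with 1 library left out 35 to 52. Fits of only the 2 groups kept 44 of 53. Kept under all alternatives were 7 of 19 calls for IL-33 in WT, 13 of 24 in STAT3-KO, 3 of 10 between genotypes with IL-33 and 1 of 6 between responses. Without the filter the erasers called lower in STAT3-KO numbered 5, those lower between genotypes with IL-33 1, and between responses 1 writer and 0 erasers were lower. Rescaling gave 1 eraser higher in WT and 5 lower in STAT3-KO. The 2-group fit left 1 eraser lower between genotypes with IL-33. With the length trend removed, 4 erasers fell in STAT3-KO, 6 writers were higher and 1 eraser lower between genotypes with IL-33, and 2 writers were higher and 2 lower between responses. The cause of these changes was not tested, and shares of all tested genes called under the alternatives were not at hand.

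Leaving out 1 library gave, for IL-33 in WT, 1 to 3 writers higher, 5 to 11 lower, and 0 to 1 erasers higher and 2 to 5 lower. For IL-33 in STAT3-KO it gave 9 to 14 writers and 3 to 9 erasers lower. Between genotypes with IL-33 it gave 1 to 4 writers higher, 2 to 5 lower and 0 to 2 erasers lower, and between responses 0 to 1 writers higher, 1 to 4 lower and 0 to 2 erasers lower. A lone library left in a group was assumed to vary like the other groups.

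Deviations of same-numbered libraries correlated across genes at -0.0619 to 0.0448 over 6 pairs of groups, so no pairing by replicate number was seen. With 2 libraries per group this cannot exclude a shared mouse, culture or batch. With a replicate block 54 of 59 calls held, 1 eraser was higher in WT, and 3 writers were lower between responses. Tet1, Suv39h2 and Carm1 rest on at most 71 reads in a library. Setd1b was left out by the filter of 1 FPKM, and the fit without it called Setd1b lower with IL-33 in STAT3-KO cells (-0.61, adjusted p = 0.0169).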

Other observations

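Rbbp4 and Rbbp7 encode closely related histone-binding proteins found in PRC2 and other chromatin complexes, and their values went apart in STAT3-KO cells. Rbbp4 measured 18.9 and 23.5 FPKM in WT control, 19.1 and 19.2 in STAT3-KO control, 31.0 and 32.2 in WT IL-33, and 11.4 and 12.7 in STAT3-KO IL-33. It rose in WT (0.56 ± 0.14, adjusted p = 0.0137) and fell in STAT3-KO cells (-0.63 ± 0.14, adjusted p = 0.00543), whereas Rbbp7 rose in both, as given above. Near-identical stretches of the pair could share reads, which a value per gene does not show.

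Cbx3 measured 7.30 and 8.30 FPKM in WT control, 6.82 and 7.22 in STAT3-KO control, 8.75 and 8.13 in WT IL-33, and 2.46 and 2.88 in STAT3-KO IL-33. With IL-33 it was lower in STAT3-KO than WT cells by -1.37 ± 0.16 (adjusted p = 0.000467), called in all 15 alternatives. Tdg, the glycosylase that excises oxidised methylcytosine, rose from 13.7 and 14.6 to 21.0 and 21.9 FPKM in WT (0.57 ± 0.12, adjusted p = 0.00799) and from 11 and 11.6 to 17.3 and 19.0 in STAT3-KO cells (0.64 ± 0.12, adjusted p = 0.00315). Its IL-33 libraries all lay above its control libraries, and the WT call was lost without WT IL-33 replicate 2 (adjusted p = 0.0501). Ash1l, an H3K36 methyltransferase, fell from 7.79 and 8.43 to 2.23 and 1.70 FPKM in WT (-1.62 ± 0.17, adjusted p = 0.000215) and from 10.1 and 9.42 to 3.19 and 2.87 in STAT3-KO cells (-1.42 ± 0.17, adjusted p = 0.000265), in every alternative.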
